A study of Mus musculus with 22 samples.

Results

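The 35 genes described here carry out DNA replication and entry into S phase, and were taken as every array probe whose transcript accession maps to 1 of the symbols Orc1, Orc6, Cdc6, Cdt1, Mcm2 to Mcm7, Mcm10, Cdc45, Gins1, Gins2, Pola1, Prim1, Pold1, Pole, Pcna, Rfc1 to Rfc5, Rpa1, Rpa2, Fen1, Lig1, Rrm1, Rrm2, Tyms, Tk1, Ccne1, Ccne2 and E2f1. They were represented by 39 probes, out of 20018 named genes and 55681 probes on the array, and Rfc4, Pole, Cdc6 and Ccne1 had 2 probes each, so that the brighter probe stands for the gene. The cells were FE1, a spontaneously immortalised lung epithelial line from the transgenic MutaMouse, cultured in the presence of epidermal growth factor, and were collected 24 h after the start of exposure to Mitsui7, a long and rigid multi-walled carbon nanotube. Vehicle control cells (0 µg/ml, 5 arrays) were compared with cells at a low (12.5 µg/ml, 6 arrays), medium (25 µg/ml, 5 arrays) and high (100 µg/ml, 6 arrays) concentration. Each array measured the Cy5-labelled cell RNA against Cy3-labelled Universal Mouse Reference RNA, a pool from 11 mouse cell lines, and a level below is the log2 ratio of the cells to that pool. FE1 is a single line, and the paper reports fewer separate exposure experiments than a group has arrays. The labels do not tie arrays to experiments or culture days, so that p-values measure the spread between these arrays, which may be partly technical.

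The epithelial label was only partly matched by its markers. Krt8, Krt18 and Krt7, keratins of simple epithelia, were detected on all 22 arrays and Krt19 on 21; Krt7 was lower at the medium (-0.79) and high (-0.85) concentrations by the test described below, and the other keratins were not. By contrast Cdh1, the adhesion protein that defines epithelial sheets, was detected on 0 arrays and Epcam on 10. The log2 ratios of the 3 detected epithelial markers with a value on every array summed to between -11.61 and -7.75 in the control. The sums lay between -11.08 and -8.81 at the low, -12.07 and -9.99 at the medium, and -11.74 and -10.10 at the high concentration. The 6 fibroblast-type markers (Vim, Col1a1, Col1a2, Pdgfra, Pdgfrb and Thy1) were detected on all 22 arrays. Of these, Pdgfra, Col1a1 and Col1a2 passed the same test at every concentration and Pdgfrb did at the medium and high concentrations. These 4 were lower than in the control where they passed. Vim and Thy1 did not pass, and the highest change in the list was 0.14, 0.39 and 0.14 at the 3 concentrations. The summed log2 ratio of the list, over the 5 markers with a value on every array, lay between -2.95 and -1.46 in the control. It lay between -8.20 and -3.81 at the low, -8.44 and -6.64 at the medium, and -9.27 and -6.40 at the high concentration. Whether this had a part in the results for the replication genes was not tested. Of 5 lung markers, Scgb1a1 was detected on 21 arrays, Sftpc on 17, Sftpb on 3, and Sftpa1 and Nkx2-1 on 0. Of 4 immune cell markers, Cd3e was detected on 22 arrays, Ptprc on 21, Adgre1 on 19 and Lyz2 on 6. By limma 0 genes of either list were called at any concentration. Only 1, 2 and 2 lung markers passed the detection filter of that test. At an unadjusted p of 0.05, 0 of 1 passed at the low concentration and 2 of 2, both higher, at the medium and high. Their changes were 0.40 and 0.75 at the medium and 0.49 and 0.61 at the high concentration, with smallest adjusted p of 0.0913 and 0.0502. Of 3 immune markers, 0 passed the unadjusted p at any concentration. In RNA from a whole culture, fewer cells in S phase and less of the RNA per cell cannot be told apart.

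Replication is prepared in G1, when the origin recognition complex, Cdc6 and Cdt1 load the Mcm2 to Mcm7 helicase onto origins. In S phase Mcm10, Cdc45 and the GINS complex switch the helicase on, primase and the replicative polymerases copy the strands on the Pcna ring that replication factor C loads, and Fen1 and Lig1 join the lagging strand pieces. Most of these genes are known targets of the E2F transcription factors, which are released when cyclin E and cyclin D kinases inactivate the retinoblastoma proteins, so that the group is widely read as a measure of how many cells are cycling.

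Promoter sequence is shown for the 3 genes that passed the full test at some concentration (Cdt1, Mcm10 and Rrm2), for Lig1, which had the smallest adjusted p, and for Mcm6, a helicase gene with 3 E2F-like matches whose RNA did not pass the test. Each window is RefSeq sequence on GRCm38.p6, 5′ to 3′ on the strand of the gene, from 250 bases before to 50 after the annotated start. Capitals mark the E2F-like motif TTTNNCGC and the CCAAT box, each searched on both strands, so that a match on the opposite strand reads as the reverse complement (ATTGG for CCAAT). RefSeq lists 3 starts for Lig1, and the window shown is the only 1 of them with an E2F-like match.
Cdt1 (chr8:122567765-122568064, plus strand): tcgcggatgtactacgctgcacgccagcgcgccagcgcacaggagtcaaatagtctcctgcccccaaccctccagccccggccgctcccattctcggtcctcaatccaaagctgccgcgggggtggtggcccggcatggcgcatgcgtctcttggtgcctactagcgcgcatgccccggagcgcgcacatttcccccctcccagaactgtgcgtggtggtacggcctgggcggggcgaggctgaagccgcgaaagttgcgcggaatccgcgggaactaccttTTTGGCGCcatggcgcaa
Mcm10 (chr2:5012742-5013041, minus strand): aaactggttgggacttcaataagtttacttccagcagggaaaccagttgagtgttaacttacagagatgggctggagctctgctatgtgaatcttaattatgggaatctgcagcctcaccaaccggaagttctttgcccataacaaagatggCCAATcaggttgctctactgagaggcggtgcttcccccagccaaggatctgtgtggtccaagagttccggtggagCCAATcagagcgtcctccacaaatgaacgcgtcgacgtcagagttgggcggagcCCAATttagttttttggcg
Rrm2 (chr12:24708004-24708303, plus strand): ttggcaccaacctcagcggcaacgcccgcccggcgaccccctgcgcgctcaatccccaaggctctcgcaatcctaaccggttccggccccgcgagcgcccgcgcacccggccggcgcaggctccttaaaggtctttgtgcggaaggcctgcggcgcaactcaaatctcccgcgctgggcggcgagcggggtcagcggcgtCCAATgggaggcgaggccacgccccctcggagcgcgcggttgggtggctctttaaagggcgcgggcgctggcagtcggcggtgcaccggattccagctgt
Lig1 (chr7:13278576-13278875, plus strand): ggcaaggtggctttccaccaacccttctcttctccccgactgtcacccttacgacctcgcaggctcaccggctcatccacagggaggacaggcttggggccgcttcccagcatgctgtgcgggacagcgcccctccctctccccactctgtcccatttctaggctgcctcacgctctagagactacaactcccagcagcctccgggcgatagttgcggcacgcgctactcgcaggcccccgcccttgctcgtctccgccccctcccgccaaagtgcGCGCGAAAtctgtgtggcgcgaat
Mcm6 (chr1:128359656-128359955, minus strand): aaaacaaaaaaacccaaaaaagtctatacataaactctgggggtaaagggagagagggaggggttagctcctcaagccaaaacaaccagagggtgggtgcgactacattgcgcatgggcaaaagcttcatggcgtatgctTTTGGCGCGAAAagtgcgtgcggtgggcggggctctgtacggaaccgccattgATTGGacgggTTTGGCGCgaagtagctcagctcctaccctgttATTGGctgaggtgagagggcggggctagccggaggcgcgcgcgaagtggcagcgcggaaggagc

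The Cdt1 match began 33 bases after the start and that of Lig1 27 bases after it. In Mcm6, matches began 110, 106 and 47 bases before the start, of which the first pair overlapped on opposite strands. Mcm10 held 3 CCAAT boxes and Rrm2 held 1, and neither window had an E2F-like match. Windows were given for 29 of the 35 genes, and not for Rfc2, Mcm4, Gins2, Gins1, Pole and Ccne2. The E2F-like motif was found in 12 of the 29 (41.4%), against 5.93% of the 27025 genes with a window, and CCAAT in 18 of the 29 (62.1%), against 41.1%. At the high concentration the median log2 change was 0.02 among the 12 genes with TTTNNCGC, with 3 past the adjusted p, and -0.05 among the 17 without it, also with 3. A match is a string of letters and no evidence of binding, and a window without one may have a site elsewhere.

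Of the 35 genes, 34 were detected on all 22 arrays, where detection means a Cy5 signal above that of the negative control spots. Ccne2, a cyclin E, was not well above background on any array, and no change is given for it. The ratio to the reference pool, which says nothing of which gene had more RNA, differed between genes: for Rrm1, the large subunit of ribonucleotide reductase, it lay between 0.74 and 1.25 on the 22 arrays, and for Rrm2, the small subunit, between -2.97 and -0.70. The median log2 ratio over the 34 genes was -0.08 ± 0.20 (SD, n = 5) in the control, -0.14 ± 0.14 (n = 6) at the low, -0.11 ± 0.07 (n = 5) at the medium and -0.13 ± 0.16 (n = 6) at the high concentration, and the 4 groups overlapped.

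Some arrays stood apart for these genes before any comparison. Control replicate 5 was the lowest control for 15 of the 34 genes, among them Orc6 (-1.44), Cdt1 (-1.42), Fen1 (-1.41), Mcm3 (-1.36) and Mcm10 (-0.91), yet was the highest for Mcm2 (1.01). Low replicate 4 held the extreme values of Fen1 (3.43), Rrm2 (-2.97), Orc6 (-2.81) and Pold1 (-2.10), and low replicate 6 that of Pole (-2.15). The replicate 1 array of each group was the highest of its group for 15 or 16 of the 34 genes. The arrays were hybridised on 5 slides, and slides 1 to 4 held all 4 groups. Of the variance of the 31 replication genes with a value on every array (without Mcm5, Rpa2 and E2f1), 33.96% lay between slides and a further 13.6% between groups, much as over all detected genes (33.6% and 14.1%), and slide was a term of the model. Detected probes per array ranged from 23690 to 39145, with control replicate 5 the lowest. Values of named genes that moved most on leaving out control replicate 5, low replicate 4 or low replicate 6 are given both ways. For Rfc2 the range over alternative settings is given instead.

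**Figure D1:**
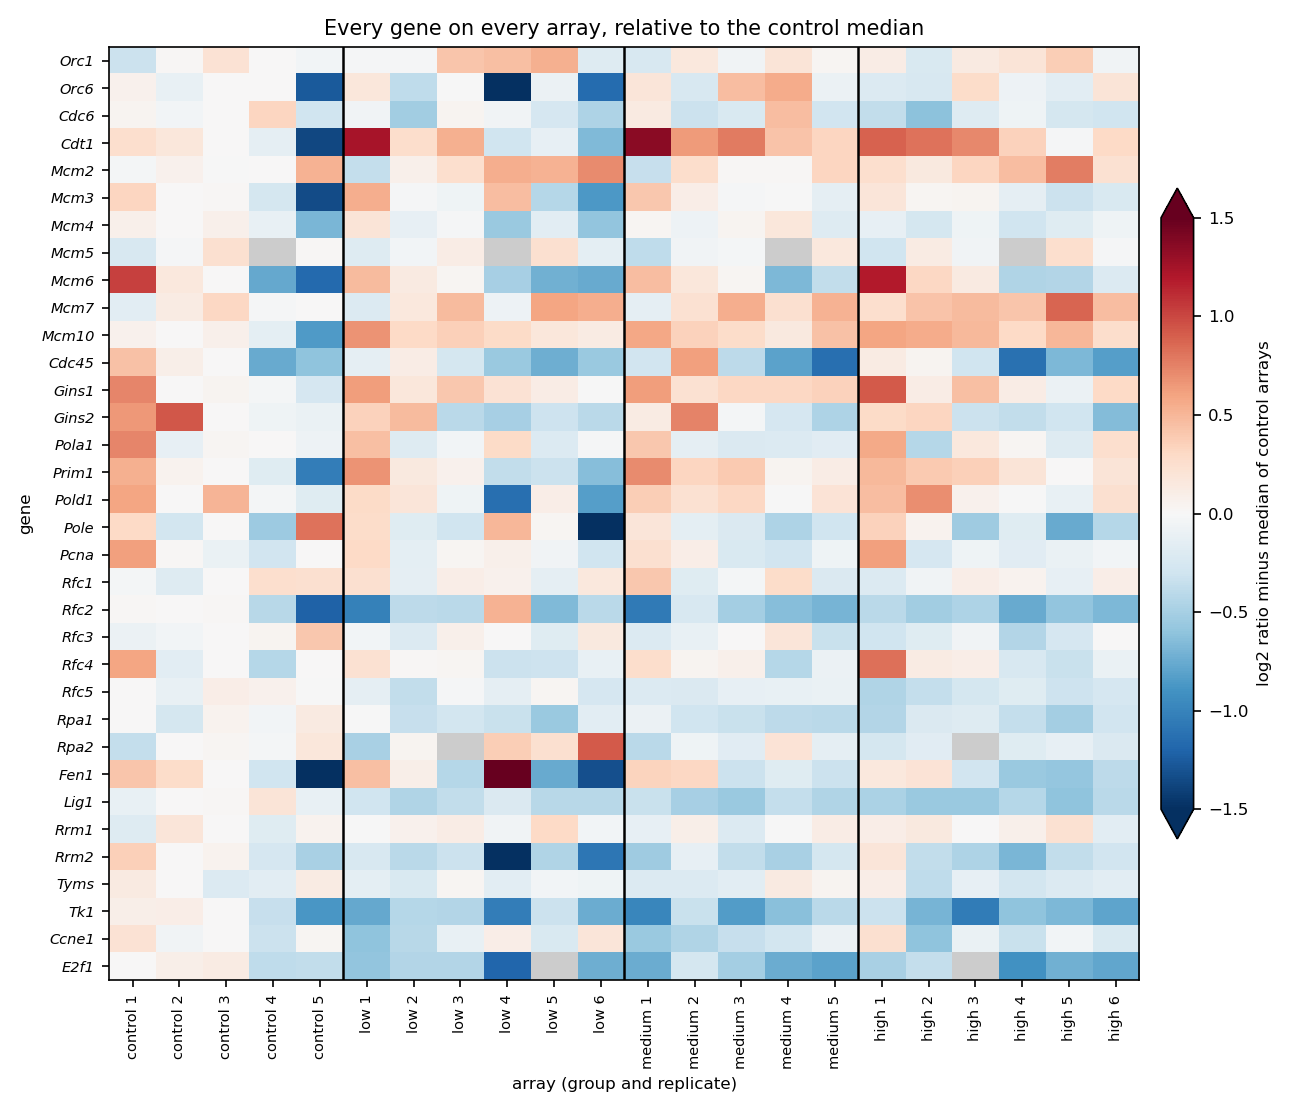
Heat map of the 34 detected genes (rows) on the 22 arrays (columns, grouped by concentration). Colour is the log2 ratio minus the median of the 5 control arrays, capped at 1.5 in either direction, and grey marks values left out because the scanner marked the spot as an outlier. Rows for Lig1 and E2f1 are blue across most exposed arrays and those for Mcm10 and Cdt1 mostly red, while control 5, low 4 and low 6 carry single deep values in other rows.

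Few replication genes differed between exposed and control cells by 1.5-fold or more. Cdt1 and Mcm10 were higher, Rrm2 was lower at the low concentration alone by this threshold, and Lig1 and E2f1 were lower throughout by less than 1.5-fold. A gene was called when its adjusted p (limma, Benjamini-Hochberg over all probes) was at most 0.05, its change at least 1.5-fold and its probe detected on 4 or more arrays of either group. At the low concentration 1 of 34 was called, Rrm2, which was lower, against 5.28% of all detected genes (2.21% higher and 3.06% lower). At the medium concentration 1 was called, Cdt1, which was higher (background 8.97%, of which 4.29% higher and 4.68% lower), and at the high concentration 2 were, Cdt1 and Mcm10, both higher (background 11.9%, of which 5.47% higher and 6.44% lower). The share of the members called, 2.94%, 2.94% and 5.88%, was below the background each time, though with so few calls this does not set the replication genes apart from other genes. By adjusted p alone, whatever the fold, 5 genes passed at the low (14.7%, background 9.83%), 4 at the medium (11.8%, background 14.9%) and 7 at the high concentration (20.6%, background 20.8%). At an unadjusted p of 0.05, 10, 11 and 12 of the 34 passed (29.4%, 32.4% and 35.3%, background 27.7%, 33% and 36.2%). The median change was -0.06, -0.06 and -0.04 on the log2 scale, with single genes between -0.69 and 0.59, -0.51 and 0.92, and -0.52 and 0.81, and the median over all detected genes was 0.00, 0.00 and 0.01.

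For most genes the data also bounded the change. The 95% interval lay wholly within 1.5-fold of no change for 23 of 34 genes at the low concentration (background 68.7%), 20 at the medium (62.6%) and 19 at the high (61.8%). The 9 genes without such a bound at any concentration were Cdt1, Mcm10, E2f1, Rrm2, Tk1, Mcm3, Pole, Fen1 and Orc6. Arrays of the exposed group lay wholly outside the range of the control for 3 genes at each concentration (background 4.81%, 9.94% and 11.4%): Lig1 and Mcm10 at all 3, E2f1 at the low, Cdt1 at the medium and Rfc5 at the high concentration.

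**Figure D2:**
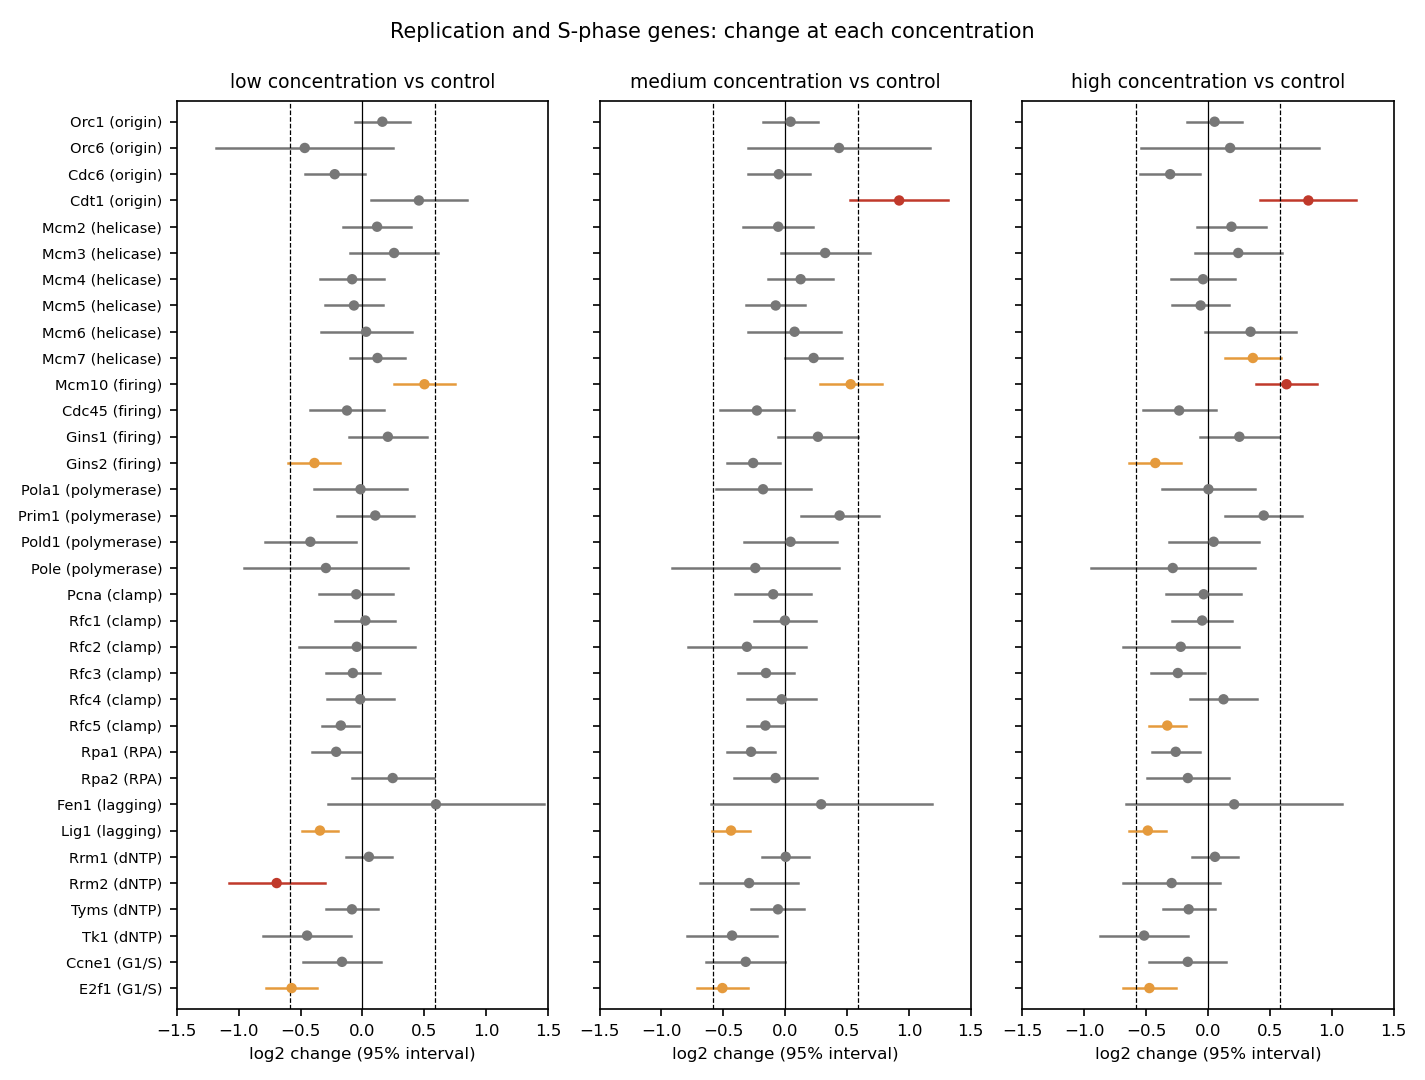
Log2 change of the 34 detected genes at each concentration against the control, with the 95% interval of the limma model. Dashed lines mark 1.5-fold, red the called genes, orange those past the adjusted p without 1.5-fold, and grey the rest. Most intervals cross 0, and Cdt1 at the medium concentration is the highest point at 0.92.

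Among the origin factors, Cdt1, the loader that brings the helicase to origins and is destroyed once S phase begins, was the gene with the largest increase. Its log2 ratio was 0.20, 0.12, -0.05, -0.19 and -1.42 on the 5 control arrays. At the medium concentration it was 1.30, 0.58, 0.73, 0.38 and 0.26, and every array lay above every control. At the high concentration the lowest, median and highest values were -0.07, 0.48 and 0.84, with 5 of 6 arrays above every control. At the low concentration they were -0.71, 0.02 and 1.18, and the groups overlapped. The change was 0.46 (SE 0.19, adjusted p = 0.242) at the low, 0.92 (SE 0.19, adjusted p = 0.00453) at the medium and 0.81 (SE 0.19, adjusted p = 0.0068) at the high concentration, which is 1.89-fold and 1.75-fold for the latter pair. Without control replicate 5 the values were 0.76 (adjusted p = 0.0184) and 0.65 (adjusted p = 0.0313), and both calls held. Both were lost without a slide term (adjusted p = 0.166 and 0.245) and with arrays centred on their median in place of loess (0.294 and 0.465), and the call at the high concentration also with the deposited log2 ratios and with slide as a random block, at changes of 0.73 to 0.84.

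The other origin factors were not called. Cdc6, the ATPase that works with Cdt1, had a log2 change of -0.31 (95% interval -0.55 to -0.06, adjusted p = 0.135) at the high concentration. Its second probe gave -0.37 there and likewise did not pass the test. At the low and medium concentrations the brighter Cdc6 probe read -0.22 and -0.05. The second read -0.52 (adjusted p = 0.187) and -0.40 (adjusted p = 0.352), so that the probes differed more there, and none passed. Orc1, the ATPase subunit of the origin recognition complex, stayed within -0.18 and 0.38 in all 3 intervals. Orc6, a small subunit of that complex, could not be bounded: its change at the low concentration was -0.47 (95% interval -1.18 to 0.25), and 0.01 without low replicate 4. At the medium and high concentrations it read 0.43 and 0.18, and 0.22 and -0.04 without control replicate 5.

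The 6 subunits of the Mcm2 to Mcm7 helicase, the motor that unwinds the fork, had log2 changes between -0.08 and 0.36 at all 3 concentrations, and none was called by limma. At an unadjusted p of 0.05, 0 of the 6 passed at the low, 1 at the medium and 1 at the high concentration. Mcm7 passed the adjusted p at the high concentration. Its control arrays read -0.51, -0.23, -0.04, -0.36 and -0.35. The 6 high concentration arrays had a lowest value of -0.09, a median of 0.10 and a highest of 0.52, with 5 of 6 above every control. The change was 0.36 (SE 0.11, adjusted p = 0.0391), and 0.29 (adjusted p = 0.14) without control replicate 5. Leaving out control replicate 1, 3 or 4, low replicate 5, or high replicate 1, 2, 4 or 5 also took it past 0.05, to between 0.0612 and 0.101. Mcm2, Mcm4 and Mcm5 had 95% intervals within 1.5-fold at every concentration, and Mcm6 read 0.34 (95% interval -0.02 to 0.71) at the high concentration and 0.20 without control replicate 5. Mcm3 read 0.26, 0.32 and 0.24, and 0.09, 0.16 and 0.08 without that array.

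Of the factors that fire the loaded helicase, Mcm10, which stabilises the opened helicase and binds the primase polymerase, was higher and Gins2 was lower. Mcm10 was 0.00, -0.06, 0.02, -0.21 and -0.91 in the control. Its lowest, median and highest values were 0.06, 0.23 and 0.61 at the low and 0.21, 0.43 and 0.53 at the high concentration. On the 5 medium concentration arrays it was 0.52, 0.28, 0.21, 0.08 and 0.38. All 17 exposed arrays thus lay above all 5 control arrays, though the nearest pair, 0.06 and 0.02, were close. The change was 0.50 (SE 0.12, adjusted p = 0.0178), 0.53 (SE 0.12, adjusted p = 0.00985) and 0.63 (SE 0.12, adjusted p = 0.00112). Only the last reached 1.5-fold, and without control replicate 5 it was 0.49 (adjusted p = 0.0026), no longer 1.5-fold. The other 2 changes were 0.36 (adjusted p = 0.0479) and 0.38 (adjusted p = 0.0272) without that array. Without low replicate 1 the change at the low concentration was 0.45 (adjusted p = 0.0531).

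Gins2, a subunit of the GINS complex, differed strongly between slides, so that its raw values overlapped. The control arrays read 0.36, 0.64, -0.29, -0.36 and -0.39, and the lowest, median and highest values were -0.94, -0.60 and 0.03 at the high concentration. After the slide effect was taken out, all 6 low and all 6 high concentration arrays lay below every control. That slide effect came from the same fit, and slide 5 held no control, so the separation partly restates the model. No share over all detected genes was taken for it. The change was -0.39 (SE 0.10, adjusted p = 0.0345) at the low, -0.26 (SE 0.10, adjusted p = 0.193) at the medium and -0.43 (SE 0.10, adjusted p = 0.00859) at the high concentration. The low concentration result lost its adjusted p on leaving out control replicate 2, 3, 4 or 5, low replicate 1, 3, 4 or 5, or high replicate 5 (0.0572 to 0.0993), whereas that at the high concentration passed without any single array. Gins1, the partner subunit, read 0.21, 0.26 and 0.25, and Cdc45, the third piece of the active helicase, -0.12, -0.23 and -0.23; neither passed the adjusted p.

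The polymerases were not called by limma at any concentration, with 1 of 4 at an unadjusted p of 0.05 at each. Prim1, the catalytic primase that lays down the RNA primer, had the largest change at the high concentration. Its log2 ratio was 0.70, 0.22, 0.16, -0.02 and -0.88 in the control, and the lowest, median and highest values at the high concentration, 0.16, 0.44 and 0.65, lay inside that range. The change was 0.10, 0.44 and 0.45, with adjusted p = 0.836, 0.112 and 0.07, and -0.05, 0.29 and 0.30 without control replicate 5. Pola1, which extends that primer, stayed between -0.18 and 0.00. Pold1, the lagging strand polymerase, read -0.42, 0.04 and 0.05, and its value at the low concentration was -0.27 without low replicate 4 and -0.32 without low replicate 6. Pole, the leading strand polymerase, read -0.29, -0.24 and -0.29, with a 95% interval of -0.96 to 0.37 at the low concentration. Without low replicate 6 the Pole value at the low concentration was 0.10, and without control replicate 5 the 3 values were 0.06, 0.11 and 0.07.

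Pcna, the sliding clamp and a common marker of proliferation, had a change near 0 with a bounded interval. Its log2 ratio was 0.70, 0.11, -0.003, -0.19 and 0.09 in the control, and the lowest, median and highest values at the high concentration were -0.16, 0.01 and 0.71. The changes were -0.05, -0.10 and -0.04, with 95% intervals of -0.35 to 0.25, -0.40 to 0.21 and -0.34 to 0.27. Of the 5 subunits of the clamp loader, Rfc5 passed the adjusted p, at the high concentration. Its control arrays read -0.26, -0.37, -0.16, -0.19 and -0.26, and the lowest, median and highest values at the high concentration were -0.71, -0.54 and -0.44, without overlap. The change was -0.33 (SE 0.07, adjusted p = 0.0042). It was -0.17 and -0.16 at the lower concentrations, which did not pass. Rfc1, Rfc3 and Rfc4 had intervals within 1.5-fold at every concentration, and the second probe of Rfc4 did too. Rfc2 read -0.05, -0.31 and -0.22, none past the adjusted p, and varied between the alternative settings described below. It ranged there from -0.57 to 0.36 at the low, -0.52 to -0.08 at the medium and -0.45 to -0.02 at the high concentration.

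Rpa1, the large subunit of the protein that coats single-stranded DNA, read -0.07, -0.33, -0.02, -0.11 and 0.06 in the control, and -0.58, -0.39 and -0.26 as lowest, median and highest at the high concentration, with 4 of 6 arrays below every control. Its change was -0.21, -0.28 and -0.26 with adjusted p = 0.289, 0.107 and 0.0967, none past the test. Rpa2, the middle subunit, read 0.24, -0.08 and -0.16, the first of which was 0.06 without low replicate 6.

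Lig1, the ligase that seals lagging strand pieces, was the member with the smallest adjusted p. Its control arrays read -0.44, -0.33, -0.31, -0.13 and -0.44. The lowest, median and highest values were -0.78, -0.72 and -0.55 at the low and -0.93, -0.85 and -0.74 at the high concentration. The medium concentration arrays read -0.67, -0.83, -0.88, -0.69 and -0.78. Every exposed array lay below every control, and the spread within a group was small, with SDs of 0.13 (n = 5), 0.09 (n = 6), 0.09 (n = 5) and 0.08 (n = 6) in order of concentration. The change was -0.34 (SE 0.07, adjusted p = 0.00707), -0.44 (SE 0.07, adjusted p = 0.00063) and -0.49 (SE 0.07, adjusted p = 9.3e-05), or 1.27, 1.35 and 1.40-fold lower, which is under the 1.5-fold threshold. The adjusted p passed on leaving out any single array. At the low concentration it passed in 35 of 41 alternative settings, and not with median centring (0.501), the deposited log2 ratios (0.108), only the arrays compared (0.0922) or without slide 1, 2 or 3 (0.0969, 0.0568 and 0.0600). At the medium and high concentrations it did not pass with median centring (0.965 and 0.443). Fen1, the flap nuclease that trims the pieces before Lig1 joins them, could not be measured as closely. Its change at the low concentration was 0.59 (95% interval -0.28 to 1.47), and -0.01 without low replicate 4. At the medium and high concentrations it read 0.29 and 0.21, and 0.04 and -0.04 without control replicate 5.

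Among the genes for nucleotide supply, Rrm2, the subunit of ribonucleotide reductase whose amount follows the cell cycle, was called lower at the low concentration. It read -0.70, -1.06, -1.003, -1.31 and -1.54 in the control, and the lowest, median and highest values at the low concentration were -2.97, -1.48 and -1.29. Of the 6 arrays, 2 lay below every control, low replicate 4 at -2.97 and low replicate 6 at -2.14. The change was -0.69 (SE 0.19, adjusted p = 0.0425), and it was -0.29 (SE 0.19) at the medium and -0.29 (SE 0.19) at the high concentration, where it did not pass. The call was lost in 23 of 41 alternative settings. Without low replicate 4 the change was -0.48 (adjusted p = 0.113), without low replicate 6 it was -0.64 (adjusted p = 0.104), and without low replicate 2 it was -0.72 (adjusted p = 0.0548). Leaving out control replicate 1, 2, 3 or 4, medium replicate 2 or 3, or high replicate 3 or 4 likewise took the adjusted p past 0.05, to between 0.0505 and 0.154. Blocking on the replicate number instead of the slide gave -0.64 (adjusted p = 0.052).

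Tk1, the thymidine kinase of the salvage route, read 0.86, 0.87, 0.78, 0.43 and -0.09 in the control. The lowest, median and highest values were -0.26, 0.19 and 0.45 at the low and -0.28, 0.09 and 0.45 at the high concentration, and the medium arrays lay between -0.20 and 0.44. The change was -0.45 (adjusted p = 0.195), -0.43 (adjusted p = 0.202) and -0.52 (adjusted p = 0.0687), none past the test. Without control replicate 5, the array at -0.09, it was -0.62 (adjusted p = 0.0314), -0.60 (adjusted p = 0.0318) and -0.69 (adjusted p = 0.00764), and all 3 were called. Rrm1 read 0.05, 0.00 and 0.06 and Tyms, the enzyme that makes thymidylate, -0.08, -0.06 and -0.16, each with intervals within 1.5-fold throughout.

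E2f1, the transcription factor that drives this group and is itself an E2F target, was lower at every concentration. It read -0.61, -0.53, -0.49, -0.99 and -0.98 in the control, -1.20, -1.05, -1.05, -1.81 and -1.34 on the 5 low concentration arrays with a value, -1.36, -0.88, -1.13, -1.36 and -1.42 at the medium, and -1.10, -0.97, -1.51, -1.33 and -1.38 on the 5 high concentration arrays with a value. Every low concentration array lay below every control, and 4 of 5 did at the medium and at the high concentration. The change was -0.57 (SE 0.10, adjusted p = 0.0021), -0.51 (SE 0.10, adjusted p = 0.00379) and -0.47 (SE 0.10, adjusted p = 0.00498), in each case short of 1.5-fold. Blocking on the replicate number gave a low concentration change of -0.59 (adjusted p = 0.000439), just past 1.5-fold, and it was also called without control replicate 5 (-0.60) and without low replicate 2, 3 or 6 (-0.59 to -0.61). Its adjusted p did not pass without slide 1 (0.0557, 0.0997 and 0.0797) or with median centring, nor at the low and medium concentrations without a slide term. Ccne1, the cyclin E that opens S phase, read -0.16, -0.32 and -0.16 with its brighter probe and -0.16, -0.18 and -0.28 with the other, none past the test.

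**Figure D3:**
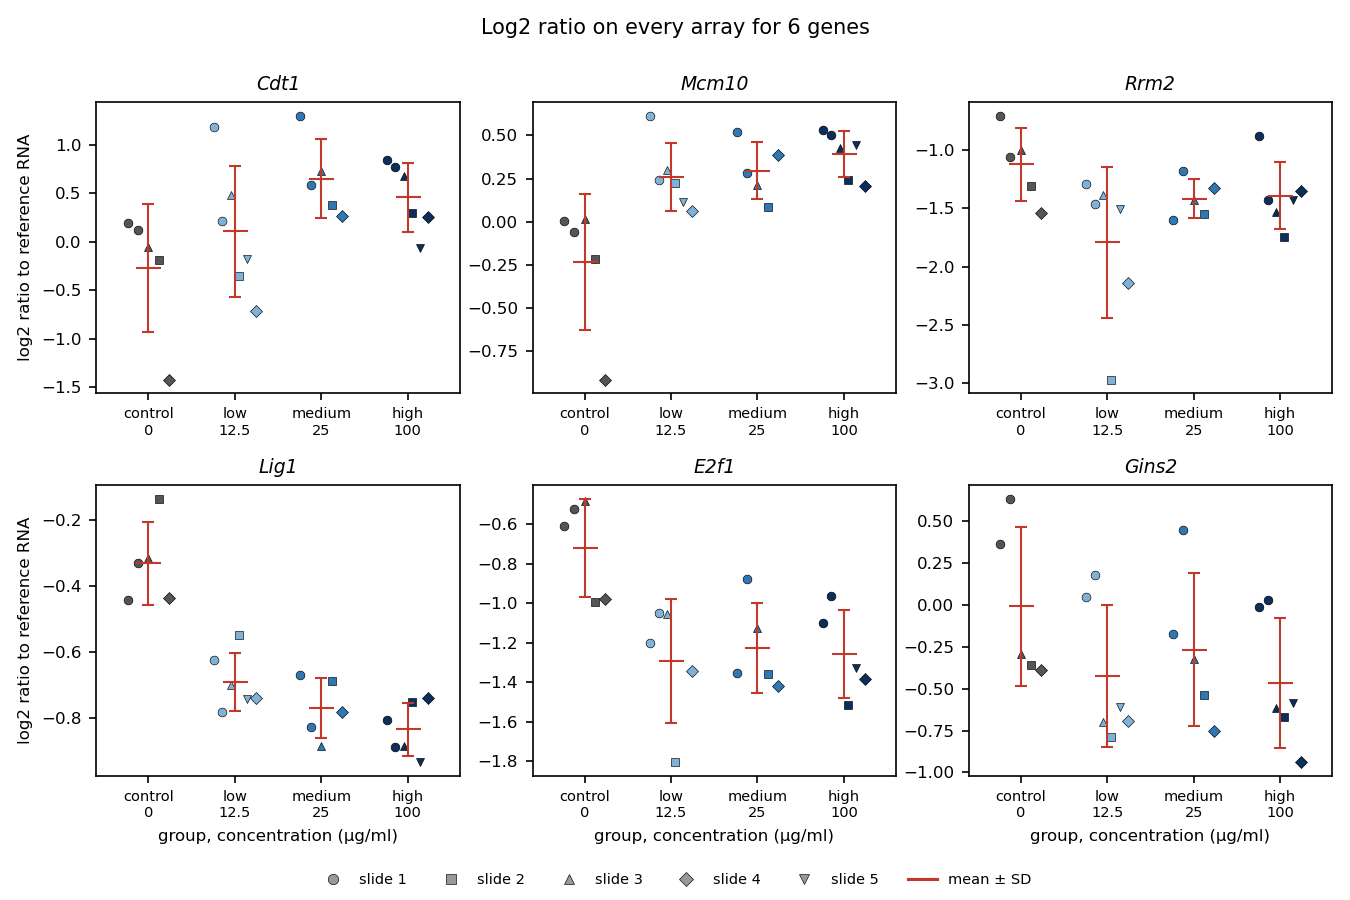
Log2 ratio to the reference RNA on each array for Cdt1, Mcm10, Rrm2, Lig1, E2f1 and Gins2, by group (concentration in µg/ml), with the marker shape giving the slide and the red bar the mean ± SD. Lig1 arrays at all 3 concentrations sit below the control range of -0.44 to -0.13, and the lone low points are control replicate 5 for Cdt1 and Mcm10 and low replicate 4 for Rrm2.

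Differences within single slides, where exposed and control arrays were hybridised together, are largely what the model averages through its slide term. Their signs are thus no separate check of the results above. On slides 2, 3 and 4 each difference is a single array against a single array. Lig1 was lower on all 4 slides at every concentration, from -0.30 to -0.41 at the low, -0.34 to -0.57 at the medium and -0.30 to -0.62 at the high. E2f1 was lower wherever both groups had a value, between -0.81 and -0.36, and Gins2 lay between -0.55 and -0.03. Mcm10 was higher on all 4 slides, between 0.19 and 0.54 on slides 1 to 3 and between 0.97 and 1.30 on slide 4, which holds control replicate 5. Cdt1 was higher on all 4 slides at the medium (0.57 to 1.69) and high (0.48 to 1.67) concentrations, with the upper value of each on slide 4, and at the low concentration it was -0.16 on slide 2. Rrm2 at the low concentration was -0.38 to -0.60 on slides 1, 3 and 4 and -1.66 on slide 2, which holds low replicate 4. On slides 1 to 3 Rrm2 was also lower at the medium (-0.51 to -0.24) and high (-0.52 to -0.27) concentrations. On slide 4 it was higher, at 0.21 and 0.19.

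**Figure D4:**
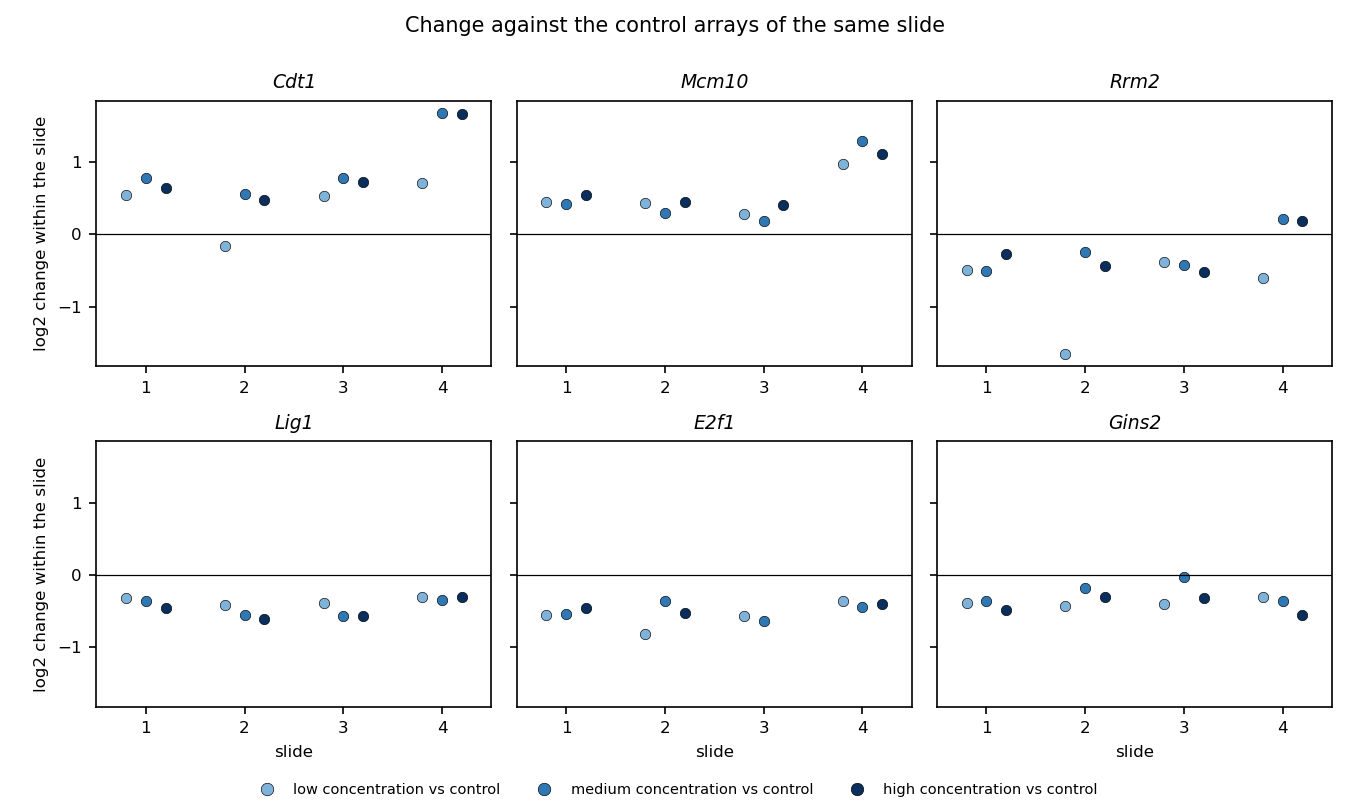
Log2 change against the control arrays of the same slide for the same 6 genes on slides 1 to 4, by concentration (shade). Lig1 points all lie between -0.62 and -0.30, whereas Cdt1 and Mcm10 reach 1.69 and 1.30 on slide 4 and Rrm2 reaches -1.66 on slide 2.

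Concentrations were also compared with each other, which asks whether these genes differed with the amount of Mitsui7. No member was called by limma between the high and low (background 0.463%), medium and low (background 0%) or high and medium (background 0%) concentrations. At an unadjusted p of 0.05, 7, 5 and 2 of the 34 passed (20.6%, 14.7% and 5.88%, background 14.9%, 8.71% and 5.47%), and the ordinary linear model likewise called 0 between the high and low concentrations. The 95% interval lay within 1.5-fold for 24, 25 and 30 of the 34 (background 82.6%, 81.7% and 86.9%). Pold1 had the smallest adjusted p of the high against the low concentration, at 0.357, with a change of 0.47. It was 0.33 without low replicate 4, 0.37 without low replicate 6, and 0.15 without these and control replicate 5.

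Other genes of replication, from lists chosen with earlier results of these data known, were counted in the same way. Of 53 further genes for origin licensing and firing, fork proteins, nucleotide supply and chromatin of new DNA, 51 were detected at the low and medium and 53 at the high concentration. Of these, 0 were called higher and 1 lower at the low, 1 higher and 1 lower at the medium, and 1 higher and 0 lower at the high concentration. The background was 5.28%, 8.97% and 11.9% of all detected genes, called in either direction. The median changes of these further genes were -0.03, 0.03 and -0.05. The gene called higher was Recql4, a helicase that takes part in origin firing. It read -1.32, -1.33, -0.87, -0.79 and -0.86 in the control and -0.49, -0.64, -0.07, -0.21 and -0.08 at the medium concentration, and its lowest, median and highest values at the high concentration were -0.44, 0.03 and 0.30. All medium and high arrays lay above every control, with changes of 0.74 (SE 0.10, adjusted p = 0.000129) and 0.99 (SE 0.10, adjusted p = 1.8e-06). Those called lower were Wdhd1, a fork scaffold, at the low concentration (-0.59, adjusted p = 0.0321) and Lmnb1, a protein of the nuclear lamina, at the medium (-0.80, adjusted p = 0.0455). By list, licensing and firing had 0, 1 and 1 of 14, 14 and 15 called and fork proteins 1, 0 and 0 of 19. Nucleotide supply had 0 of 7, 7 and 8 called, and chromatin 0, 1 and 0 of 11. At an unadjusted p of 0.05 (background 27.7%, 33% and 36.2%), licensing and firing had 3, 6 and 4, of which 2, 5 and 3 were higher. Fork proteins had 4, 2 and 3 (0, 1 and 0 higher). Nucleotide supply had 1, 2 and 3 (0, 2 and 2 higher), and chromatin 2, 4 and 3 (0, 2 and 1 higher).

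The cyclin-dependent kinase inhibitors, which brake the step into S phase, had 2, 2 and 3 genes called, of 5, 4 and 4 detected (background 5.28%, 8.97% and 11.9%). Cdkn2d, an inhibitor of the cyclin D kinases, read 0.42, 0.03, -0.08, -0.27 and -0.67 in the control and -1.30, -1.07, -1.36, -1.51 and -1.24 at the medium concentration. Its lowest, median and highest values were -1.56, -1.16 and -0.73 at the low and -1.99, -1.66 and -1.06 at the high concentration. Every exposed array lay below every control, and the change was -1.04 (SE 0.15, adjusted p = 0.000307), -1.18 (SE 0.16, adjusted p = 5.6e-05) and -1.52 (SE 0.15, adjusted p = 1.18e-06). Cdkn2c, a second inhibitor of the same kinases, was called lower at all 3 concentrations (-0.85, -0.90 and -1.19), with values missing on 4 arrays. Cdkn1a, the p21 protein that stops the cycle after damage, read -1.16, -0.32, -0.26, 0.06 and 0.21 in the control and -0.10, 0.49 and 1.44 as lowest, median and highest at the high concentration, where it was called higher (0.66, SE 0.15, adjusted p = 0.00815). It read 0.48 and 0.45 at the lower concentrations, which did not pass. Cdkn1b was not called.

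**Figure D5:**
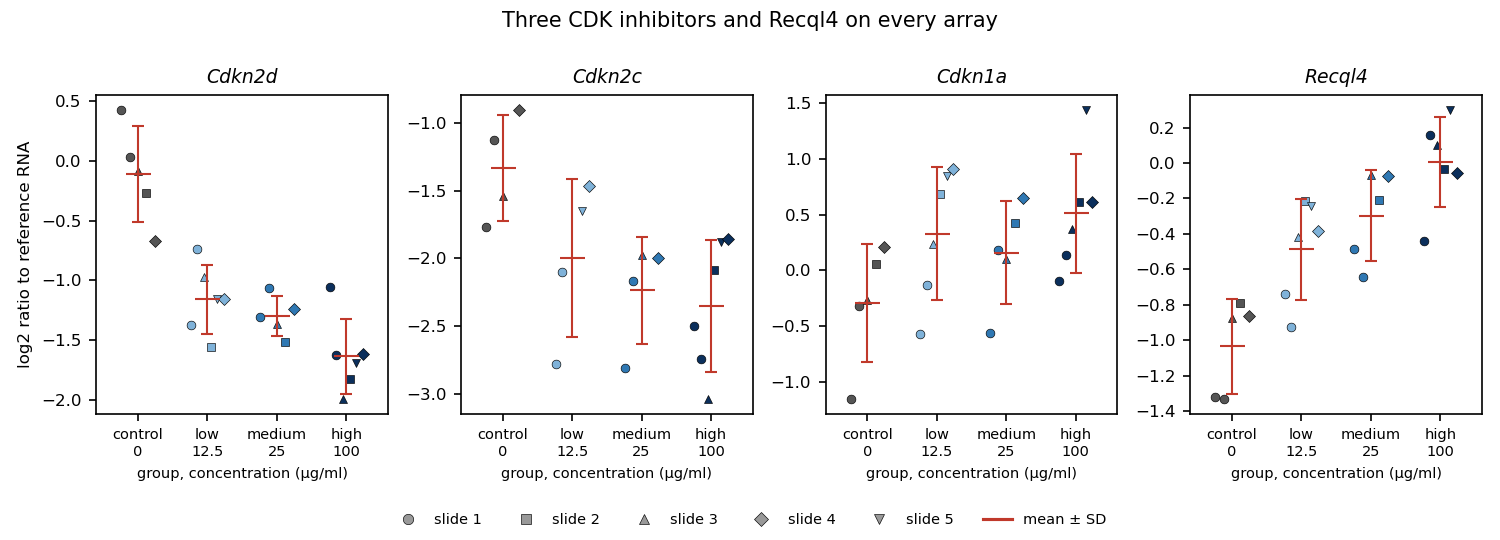
Log2 ratio to the reference RNA on each array for Cdkn2d, Cdkn2c, Cdkn1a and Recql4 by group (concentration in µg/ml), with the marker shape giving the slide and the red bar the mean ± SD. Cdkn2d lies between -0.67 and 0.42 in the control and at or below -0.73 on every exposed array.

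Of 21 genes of the E2F, retinoblastoma and G1 control list on the array, 1, 1 and 3 were called, shares close to the background of 5.28%, 8.97% and 11.9%. All were lower: E2f8, a repressor of E2F targets, at the low concentration (-0.61, adjusted p = 0.011), Ccnd1, cyclin D1, at the medium and high (-0.69 and -0.62), and Ccnd3, cyclin D3, and Rbl2, a retinoblastoma relative, at the high (-0.71 and -0.81). All 6 high concentration arrays of Ccnd3 lay below every control, whereas the 5 of Rbl2 with a value overlapped the control. Of 14 detected genes of mitosis, 0 were called at any concentration by limma, with medians of -0.10, -0.12 and -0.21. At an unadjusted p of 0.05, 2, 1 and 5 passed (background 27.7%, 33% and 36.2%), of which 1, 0 and 0 were higher. By adjusted p alone 0, 0 and 1 passed, the last at 0.0229. The reference genes Actb, Gapdh and Hprt did not pass the test, with changes of 0.06, -0.31 and 0.39 at the high concentration.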

How the data were processed

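RNA of FE1 cells was measured on 22 two-colour Agilent arrays, with the sample in Cy5 and the reference pool in Cy3 on every array and no dye swap, so that a dye effect of a probe is shared by all groups. Per the file headers, Feature Extraction 10.7.3.1 on scanner images (G2505C) made the deposited median intensity of each spot in each channel, with no normalization, on a probe grid designed for mm9. It also made the deposited log10 ratio, which is background-subtracted and dye-normalized. The authors also deposited log2 ratios per probe, whose normalization is not given in the sources used here. The last pair of value sets served as alternatives.

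Here, log2(Cy5/Cy3) was taken from the median intensities without background subtraction and normalised by loess within each array (limma 3.58.1, R 4.3.3). Spots marked as outliers by the scanner software were left out, and repeated spots of a probe were combined by their median. The model held group and slide and was fitted to all 22 arrays with lmFit and eBayes (prior degrees of freedom 5.51), with Benjamini-Hochberg adjustment over 55681 probes. It takes the place of the study's MAANOVA fit, which was not run. Genes were called at an adjusted p no higher than 0.05 and a change of 1.5-fold or more (0.58 on the log2 scale), if detected on 4 or more arrays of the control or the exposed group. A spot was detected when its Cy5 signal exceeded that of negative control spots on the array (mean and SD after 5% trimming, mean plus 3 SDs). Where outlier-marked spots left a gene without a value (Mcm5 on the 4 arrays of slide 2, Rpa2 on low replicate 3 and high replicate 3, E2f1 on low replicate 5 and high replicate 3), the fit used the remaining arrays. Signals of single arrays carry no count, so the number of arrays limits the precision. The calling step was tested on simulated data without its 1.5-fold threshold.

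Transcript accessions were named through RefSeq, which matched 26413 probes. Promoter windows are RefSeq's on GRCm38.p6. The members and the lists of other genes were chosen with earlier results of these data known. Every member gene is given by its brightest probe, with values per array for those called and for the largest change at the high concentration in each role. Genes of other lists are named where they were called. Arrays with the same replicate number deviated together in all 15 pairs of a control with an exposed array (correlations of 0.22 to 0.86 over genes). In 11 of the 15, the control matched the array of its own number best within the exposed group. Most of these pairs shared a slide and slide was not taken out first. Between slides, the correlations thus cannot separate pairing by number from a shared slide. Slide 1 held replicates 1 and 2 of every group. There each control matched the exposed array of its own number best at every concentration, with correlations of 0.57 to 0.86. What this pairing reflects was not tested. The replicate numbers were also fitted as a block, as an alternative to slide. Other alternatives were another normalization, background correction, source of values, treatment of slide, variance estimate, fold threshold, detection filter and probe choice, and leaving out each array or slide.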

Additional observations from a re-analysis of the deposited data

Results flagged for a closer look

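In 11 of the 136 gene and group combinations of the replication genes, 1 array lay far from the others of its group by Dixon's test, which by chance marks about 1 in 20. Control replicate 5 accounted for 6 of them, as the lowest control for Orc6 (-1.44), Cdt1 (-1.42), Mcm10 (-0.91) and Mcm4 (-0.39) and the highest for Mcm2 (1.01) and Rfc3 (0.0739). Pola1 stood high on control replicate 1 (0.27) and on medium replicate 1 (-0.0576). Pcna stood high on high replicate 1 (0.71) and Mcm7 on high replicate 5 (0.52). Pole stood low on low replicate 6 (-2.15). No cause was tested.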

How the results depend on the processing

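No called gene reversed its direction in the 41 alternative settings run for each gene, and no replication gene was called between the high and low concentrations in the 43 run for that count. With each array centred on its median in place of loess, no gene was called at any concentration (0, 0 and 0), the median of all genes at the low concentration shifted to -0.107 and that of the replication genes to -0.193. The low concentration count fell to 0 with the scanner software's own log ratio, without a slide term, with slide as a random block, with only the arrays of the 2 groups compared, with an ordinary linear model, and without slide 1, 2 or 3. The medium count was 0 without a slide term. The high count was 1, Mcm10, with the deposited log2 values, without a slide term and with slide as a random block. Without any fold threshold the counts were 5, 4 and 7, and at 2-fold 0, 0 and 0. The medium count was 2 without slide 2 or 3 (Cdt1 and Mcm10) and without slide 4 (Cdt1 and Tk1). Leaving out 1 array at a time gave 0 to 3, 1 to 2 and 2 to 2 calls; the upper values came without control replicate 5 at the low concentration, which added Tk1 and E2f1, and at the medium without control replicate 5 (Tk1) or control replicate 3 (Mcm10). At the high concentration the count stayed at 2 without control replicate 5, but Mcm10 lost its call and Tk1 gained one. Without control replicate 5, low replicate 4 and low replicate 6 together, chosen after seeing the data, the low count was 0 and the medium count 2. The median change was 0.0836 within slide 2 and -0.20 within slide 3 at the medium, and -0.15 within slide 1 at the high concentration. With the replicate number as a block, the counts were 1, 1 and 2, and apart from Rrm2 and E2f1 at the low concentration no call changed. The causes were not tested. Cdt1 at the high concentration read 0.84 (adjusted p = 0.108) with the deposited log2 values and 0.76 (adjusted p = 0.0552) with slide as a random block. With median centring Lig1, E2f1, Gins2, Rfc5 and Mcm7 kept their signs where they had passed the adjusted p, but did not pass it.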
